A study of Caenorhabditis elegans with 30 samples.

Results

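H3K9me3, histone H3 trimethylated at lysine 9, was compared by ChIP-seq in *C. elegans* between a triple mutant, met-2 set-25;set-32, with mutations in 3 genes for known or putative methyltransferases, and WT animals. The comparison uses 6 of the 30 samples of the series, 3 libraries of the triple mutant and 3 of WT, chosen by their labels for strain, mark and feeding. The triple mutant carried met-2(n4256), set-25(ok5021) and set-32(ok1457), and WT was the Bristol strain N2. All animals were grown at 19 °C and taken as whole, synchronized young adults, hermaphrodites by the study's methods. Each strain was fed 3 kinds of bacteria. They were the standard food OP50, bacteria making gfp dsRNA (a control, since the worms have no gfp gene) and bacteria making dsRNA of oma-1. The study describes oma-1 as specific to the germline. There is 1 H3K9me3 library for each strain and feeding, so the 3 feedings stood in for replicates. The spread given below (SD, n = 3) lies between feedings and not between repeats of a feeding. Whole animals mix germline and somatic cells, and a loss in some cells and a smaller loss in all cells cannot be told apart.

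H3K9me3 marks heterochromatin, chromatin that is kept compact and mostly silent, and in *C. elegans* it is concentrated on repeats, transposons and the arms of the chromosomes. MET-2 and SET-25 are histone methyltransferases (HMTs) that modify H3K9 and help to hold heterochromatin at the nuclear periphery. SET-32 has the SET domain of such enzymes and acts in germline nuclear RNAi, where small RNAs bound by the Argonaute protein HRDE-1 guide silencing to matching genes in the nucleus. The comparison with WT asks how much H3K9me3 depends on the enzymes together, and where.

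The files give RPKM (reads per kilobase of window, scaled by library depth) in windows of 1 kb on the WS190 genome, of which 99742 were compared. As inferred from the steps between RPKM values, the triple mutant libraries held about 2691000 aligned reads on OP50, 7227000 with gfp RNAi and 7056000 with oma-1 RNAi, and the WT libraries held 3122000, 5550000 and 4343000 in the same order of feedings. The median window had 26, 70 and 68 reads in the triple mutant and 22, 47 and 34 in WT. The names of all WT libraries share a prefix that no triple mutant library has, so a difference that goes with the prefix cannot be told apart from the strain. The genotype could not be checked at the mutated genes, and both windows of set-32 held reads in every triple mutant library. No reads were listed at 13288 kb of chromosome III in the 3 triple mutant libraries, against 4.48 to 8.11 RPKM in WT, and none in the 3 libraries of the met-2 set-25 double mutant. RNA polymerase II ChIP-seq held 0 RPKM in that window in 4 libraries with met-2 set-25, against 12.3 to 19.1 RPKM in 6 without. That window was not assigned to a gene, and whether the DNA differs there was not tested.

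The regions that carried most H3K9me3 in WT were brought close to the level of the rest of the genome in the triple mutant, on every feeding. Following the kind of sets the study used, H3K9me3(+) windows were built here as the top 5% in WT on OP50 (5031 windows). H3K9me3(−) windows, taken as background, lie between the 5th and 25th percentiles (22219 windows). In the H3K9me3(+) windows the triple mutant had a median of 13.0 RPKM on OP50, 12.7 with gfp RNAi and 12.5 with oma-1 RNAi, against 38.7, 23.1 and 30.2 RPKM in WT. In the H3K9me3(−) windows it had 5.76, 6.09 and 6.80 RPKM, against 2.88, 6.13 and 4.37 RPKM in WT. In the marked windows the 3 medians of the triple mutant were nearly equal, whereas those of WT differed with the feeding.

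As a level over the background of its own library, H3K9me3 in the H3K9me3(+) windows was 2.26, 2.08 and 1.83 times the H3K9me3(−) median in the triple mutant (2.06 ± 0.213, SD, n = 3), against 13.4, 3.76 and 6.90 times in WT (8.03 ± 4.94). The groups did not overlap (p = 0.1 by an exact permutation test, two-sided, which is the smallest p that 3 libraries on each side can give). WT on OP50 had itself chosen these windows, so each feeding was also measured in windows chosen from the WT libraries of the other feedings. There the level over background was 2.23, 2.14 and 1.84 in the triple mutant (2.07 ± 0.203), against 12.1, 3.79 and 6.95 in WT (7.61 ± 4.19), which is 0.185, 0.564 and 0.265 times WT. WT with gfp RNAi was the library with the least contrast, and the fall on that feeding was the smallest of the 3.

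**Figure D1:**
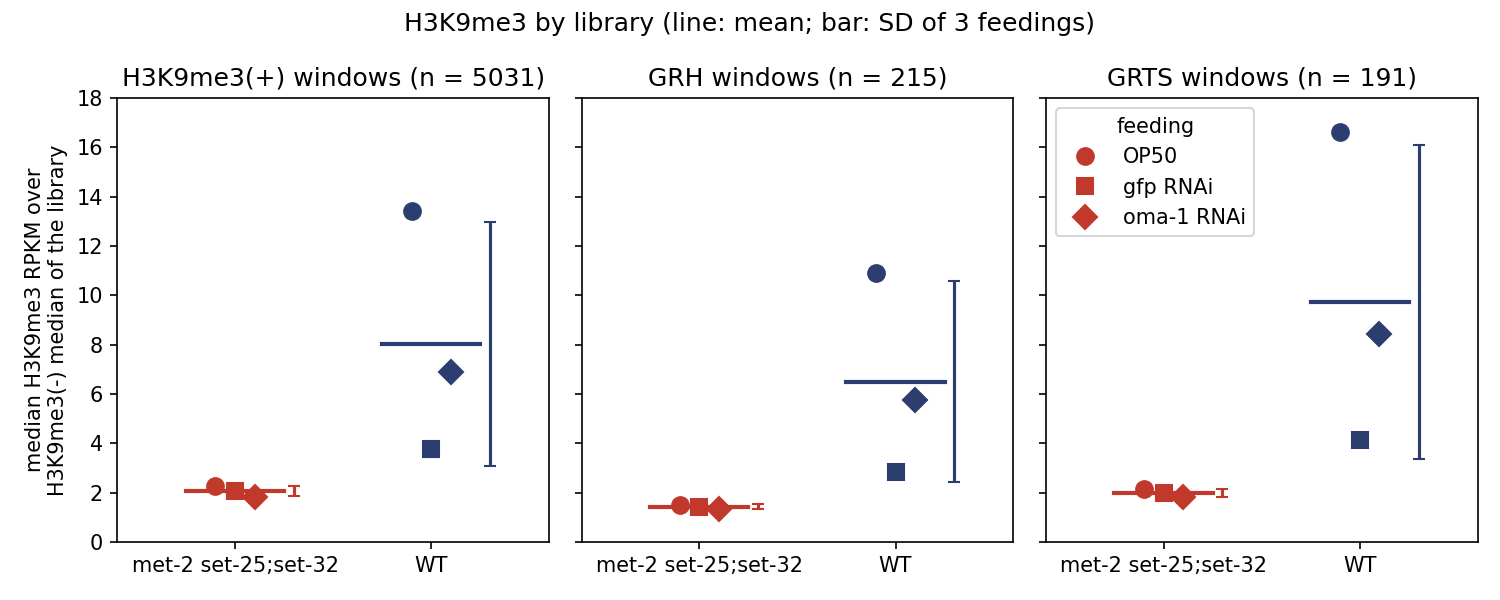
Median H3K9me3 in H3K9me3(+), GRH and GRTS windows, divided by the H3K9me3(−) median of the same library, for the triple mutant and WT. Points are libraries, shaped by feeding, with the mean as a line and the SD over 3 feedings as a bar. In the H3K9me3(+) windows the triple mutant libraries sit between 1.83 and 2.26 and the WT libraries between 3.76 and 13.4.

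The range of H3K9me3 over the whole genome was narrower as well. The ratio of the 95th to the 5th percentile of windows was 4.15, 3.28 and 2.97 in the triple mutant on OP50, gfp RNAi and oma-1 RNAi, against 17.0, 4.06 and 8.26 in WT. Here the groups overlapped, since the triple mutant on OP50 lay just above WT with gfp RNAi (3.47 ± 0.614 and 9.77 ± 6.60, SD, n = 3 each, p = 0.2 by the same exact test).

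Ranking the windows by H3K9me3 in WT on the other feedings showed how flat the triple mutant was. On OP50 the median scaled level of the triple mutant was 3.79 RPKM in the lowest 10% of windows and 12.2 RPKM in the top 1%, against 3.61 and 107 RPKM in WT. With oma-1 RNAi it was 3.88 and 9.86 RPKM in the triple mutant, against 3.61 and 52.0 RPKM in WT. With gfp RNAi it was 4.00 and 11.5 RPKM, against 4.03 and 26.1 RPKM in WT. From the 75th percentile upward the triple mutant lay between 10.1 and 12.2 RPKM on OP50, and WT between 19.0 and 107 RPKM. Between the 25th and 75th percentile the scaled levels differed in direction by feeding. The triple mutant was at 0.75 and 0.701 times WT on OP50 and at 1.18 and 1.19 times WT with gfp RNAi. This difference in direction rests on the scaling, which divided the OP50 libraries by 1.18 in the triple mutant and 0.588 in WT. As deposited, the median of all windows was higher in the triple mutant on every feeding. It was 9.66, 9.69 and 9.64 RPKM on OP50, gfp RNAi and oma-1 RNAi, against 7.04, 8.47 and 7.83 RPKM in WT.

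**Figure D2:**
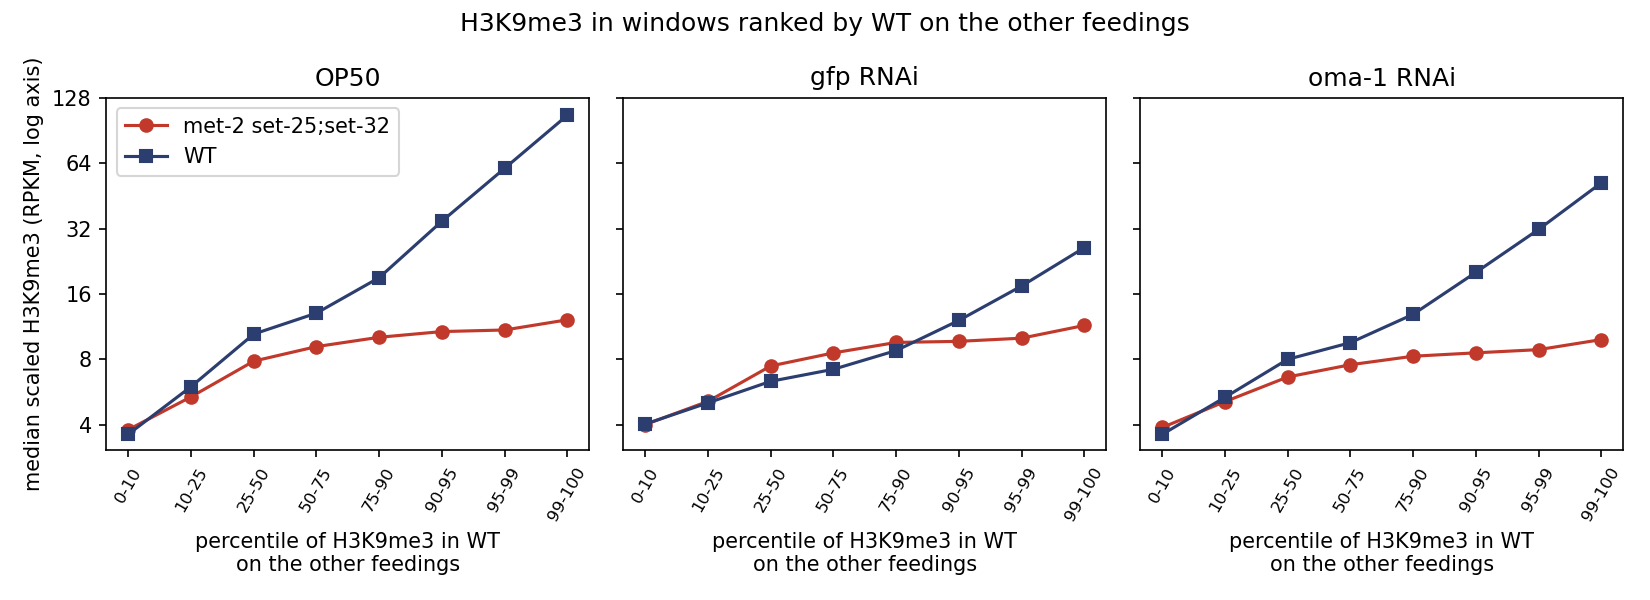
Median scaled H3K9me3 (log axis) of the triple mutant and WT in windows ranked by H3K9me3 in the WT libraries of the other feedings, 1 panel for each feeding. On OP50 the top 1% of windows stand at 12.2 RPKM in the triple mutant and 107 RPKM in WT, while the lowest 10% stand at 3.79 and 3.61 RPKM.

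Window by window, limma called 9176 windows lower in the triple mutant than in WT, which is 9.20% of the 99742 tested, and 13 windows higher, 0.0130% (Benjamini-Hochberg adjusted p under 0.05 and at least 2-fold on the log2(RPKM + 1) scale). For this test each library was scaled to its H3K9me3(−) median, and the median window then changed by -0.19 on the log2 scale. Of the windows called lower, 9103 were lower on every feeding. Their median change was -2.24 on OP50, -0.66 with gfp RNAi and -1.60 with oma-1 RNAi, and 1831 windows fell at least 2-fold on each of the 3 feedings. The median window called lower held 11.2, 11.3 and 11.1 RPKM in the triple mutant, against 28.3, 18.2 and 23.3 RPKM in WT. Of the calls, 4277 lay outside the H3K9me3(+) windows, where 4.52% of windows were lower. A fit over the triple mutant and WT libraries only called 4988 windows lower and 12 higher. With the authors' depth normalization alone, 4349 windows were lower and 512 higher, and the median window changed by 0.29. Without the OP50 libraries 5631 windows were lower, without the WT library on OP50 5708, and without the gfp RNAi libraries 14730.

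None of the 13 windows called higher adjoined another, and their reads in WT differed with the feeding. They held 4.09 to 8.17 RPKM in the triple mutant on OP50, 4.43 to 7.75 with gfp RNAi and 4.54 to 8.93 with oma-1 RNAi. WT had 0 to 0.96 RPKM there on OP50, which is 0 to 3 reads, 3.42 to 6.67 RPKM (19 to 37 reads) with gfp RNAi and 0.92 to 3.22 RPKM (4 to 14 reads) with oma-1 RNAi. The triple mutant on OP50 held 11 to 22 reads in the same windows. The count depended on single feedings and libraries. It was 3 without the OP50 libraries, 187 without the gfp RNAi libraries and 84 without the oma-1 RNAi libraries. Leaving out a single library gave 8 (OP50), 51 (gfp RNAi) and 35 (oma-1 RNAi) for the triple mutant, and 7, 162 and 71 for WT in the same order.

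The native targets of germline nuclear RNAi lost H3K9me3 almost throughout. The table marks 215 GRH windows, where the authors' earlier study found heterochromatin that depends on germline nuclear RNAi, and 191 GRTS windows, where it found transcriptional silencing of that kind, with 25 windows in both. Of the GRH windows 207 (96.3%) were lower in the triple mutant, and of the GRTS windows 166 (86.9%), against 9.20% of all windows. The median change was -1.81 in GRH and -2.01 in GRTS windows, against -0.19 over all windows. Such a loss was not particular to these targets. Of the H3K9me3(+) windows, which WT on OP50 chose, 97.4% were lower, with a median change of -1.74.

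In GRH windows the median was 8.73, 8.71 and 9.0 RPKM in the triple mutant on OP50, gfp RNAi and oma-1 RNAi, against 31.4, 17.4 and 25.2 RPKM in WT. The triple mutant values lay below the median of all windows in the same libraries, 9.66, 9.69 and 9.64 RPKM. In GRTS windows the median was 12.3, 12.04 and 12.3 RPKM in the triple mutant, against 47.9, 25.3 and 36.9 RPKM in WT, so here the triple mutant lay above the median of all windows. Scaled to the H3K9me3(−) windows chosen from the other feedings, GRH windows stood at 0.153, 0.517 and 0.229 times WT (0.300 ± 0.192) and GRTS windows at 0.141, 0.490 and 0.215 times WT (0.282 ± 0.184). The marked windows that were not called, a split that the change itself sets, had less H3K9me3 in WT than the median marked window. The 25 GRTS windows not called had medians of 10.0, 10.4 and 10.5 RPKM in the triple mutant, against 11.2, 10.8 and 11.7 RPKM in WT. The 8 GRH windows not called had 10.9, 9.21 and 9.96 RPKM in the triple mutant, against 13.9, 10.99 and 13.4 RPKM in WT.

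Single loci of both kinds showed the same in every library. At cer8, a retrotransposon on chromosome V that the study uses as its GRTS example, the 9 GRTS windows at 5182 to 5192 kb held 15.5, 14.9 and 14.8 RPKM in the triple mutant on OP50, gfp RNAi and oma-1 RNAi, against 71.8, 37.2 and 54.1 RPKM in WT. The 95% counting interval in the shallowest library, the triple mutant on OP50, was 14.0 to 17.2 RPKM. All 9 windows were called lower, with a mean change of -2.25 ± 0.93 on the log2 scale (SD over 3 feedings). At the GRH locus at 5472 to 5479 kb of chromosome V, the 7 GRH windows held 11.9, 13.4 and 12.4 RPKM in the triple mutant, against 56.8, 27.9 and 45.3 RPKM in WT. All 7 were called lower, with a mean change of -2.15 ± 1.08, and the groups did not overlap at either locus.

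The study measured H3K9me3 by ChIP-qPCR at oma-1 and at a control region, and the primers mark where the ChIP-seq windows can be set beside that assay. The primers are shown because they bound the tested segments, from 8889800 to 8889957 of chromosome IV and from 6708915 to 6709320 of chromosome II (WS190).
oma-1, SG-1018: acatgtatttttgctcactgtaa
oma-1, SG-1019: ggcctggcaaacatttctaa
control region, SG-1044: agccatggcacaaaaagaag
control region, SG-1045: tgtggcctgagaagacaaaa
At the control region the 2 windows held 10.2, 8.93 and 9.64 RPKM in the triple mutant on OP50, gfp RNAi and oma-1 RNAi, against 7.52, 7.66 and 6.68 RPKM in WT. Neither window was called, and the deposited levels were higher in the triple mutant while the scaled change was -0.12 ± 0.34 on the log2 scale (SD over 3 feedings). The 2 windows of oma-1 held 9.48, 8.31 and 10.5 RPKM in the triple mutant, against 3.84, 7.12 and 26.4 RPKM in WT, and neither was called, since the change of -1.82 on oma-1 RNAi stood beside 0.26 on OP50 and 0.19 on gfp RNAi.

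Low H3K9me3 was also measured at single genes that the study used. The tba-1 window on chromosome I, in a gene for alpha-tubulin, held 7.80, 8.30 and 8.36 RPKM in the triple mutant, against 1.6, 6.49 and 4.37 RPKM in WT. It was not called. The WT library on OP50 was the lowest of the 6 there, beside its low H3K9me3(−) median of 2.88 RPKM. At set-32 itself, the first of 2 windows, at 9519 kb of chromosome I, differed by -0.82 on the log2 scale and was not called at 2-fold (adjusted p = 0.0121 by limma). The second, at 9520 kb, differed by -0.0077 (adjusted p = 0.994) and held 7.8, 12.2 and 10.9 RPKM in the triple mutant, against 6.08, 8.11 and 6.91 RPKM in WT.

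**Figure D3:**
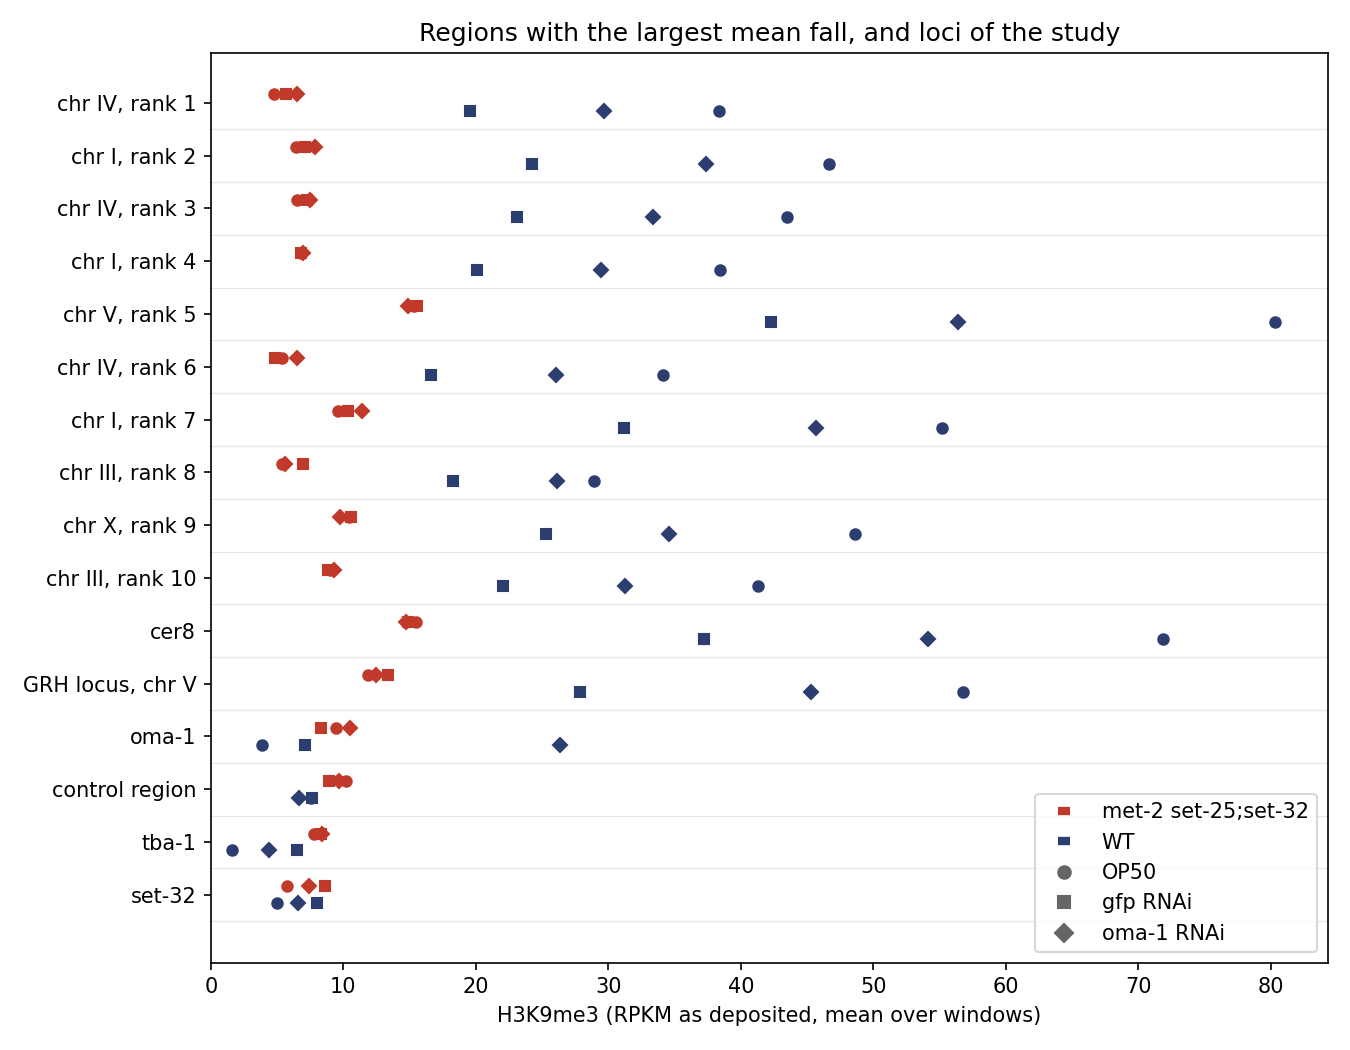
H3K9me3 as deposited (RPKM, mean over the windows of each row) in the 10 regions that fell most on average and in 6 loci of the study, with the triple mutant above WT in each row and points shaped by feeding. In the 10 regions the triple mutant lies between 4.78 and 15.6 RPKM and WT between 16.6 and 80.3 RPKM. At oma-1 only WT with oma-1 RNAi stands out, at 26.4 RPKM.

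The windows called lower were gathered away from the middle of the chromosomes. With each chromosome cut into 10 equal parts from left to right, 1.96% of windows were lower in the 4th to 7th parts, against 14.0% in the others. Chromosome V had the highest share, 14.0% of its windows (2917), followed by I with 12.5% (1881), II with 9.55% (1454), III with 8.13% (1115), IV with 6.13% (1067) and X with 4.21% (742). The densest parts were the 9th of chromosome V, where 65.4% of windows were lower, and the 2nd of chromosome II, with 49.4%. In that part of chromosome V the median scaled level was 9.79, 9.34 and 7.96 RPKM in the triple mutant on OP50, gfp RNAi and oma-1 RNAi, against 51.7, 15.1 and 26.6 RPKM in WT. The first part of X held 385 of the 742 windows of that chromosome. Its median scaled level was 8.73, 8.33 and 7.24 RPKM in the triple mutant and 16.9, 7.77 and 10.8 RPKM in WT. With gfp RNAi the scaled median there was thus not lower in the triple mutant. On OP50 and oma-1 RNAi the direction of this median rests on the scaling. It divided the triple mutant by 1.18 and 1.39 on these feedings, and WT by 0.588 and 0.893.

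**Figure D4:**
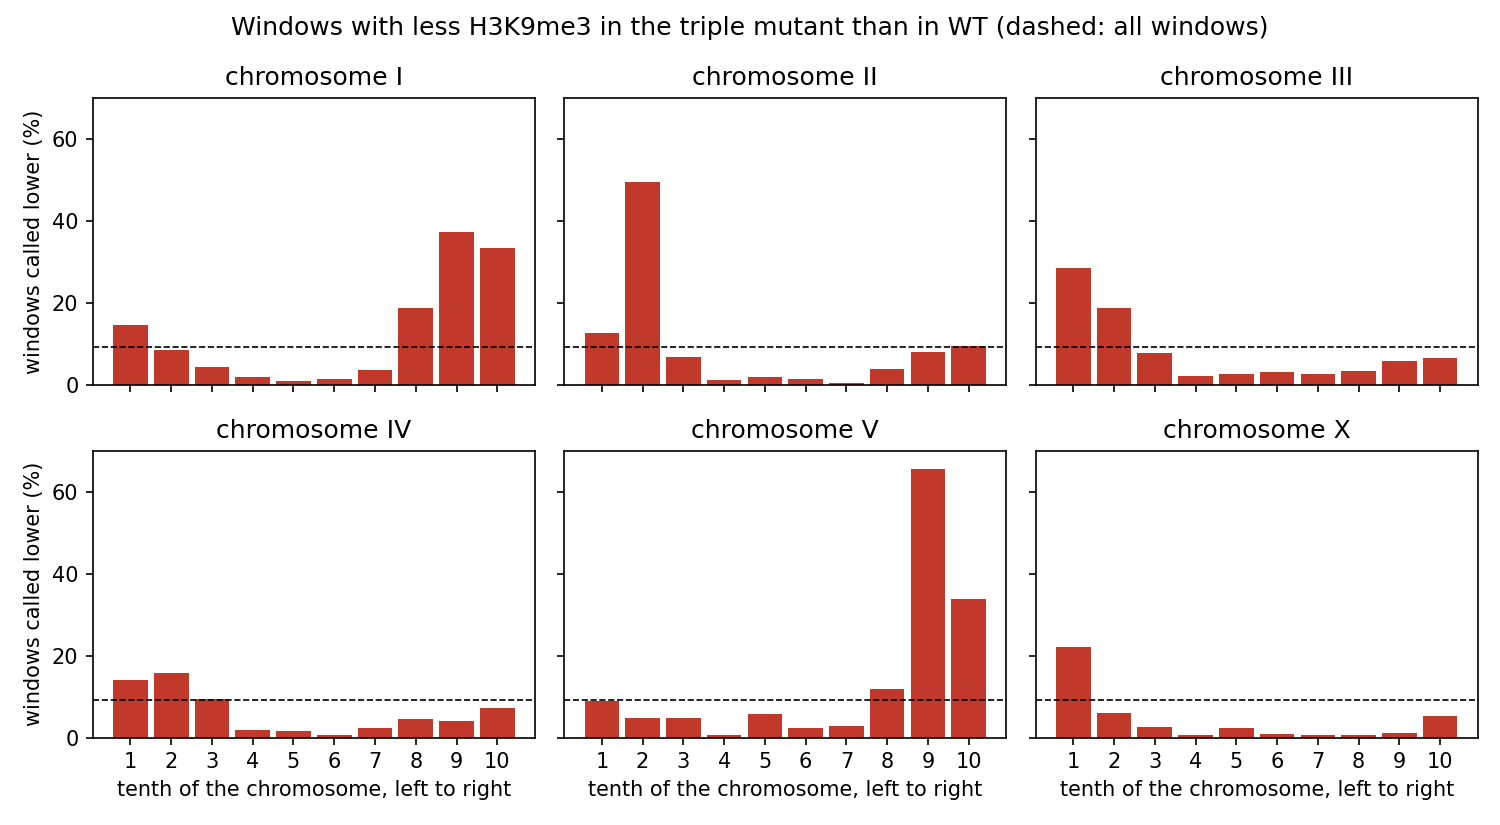
Share of windows called lower in the triple mutant in each of 10 equal parts of each chromosome, left to right, with a dashed line at 9.20%, the share of all windows. The bars reach 65.4% in the 9th part of chromosome V and 49.4% in the 2nd of chromosome II, and stay under 6% in the 4th to 7th parts of every chromosome.

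The proportion lost was much alike between chromosomes other than V. In H3K9me3(+) windows chosen from the other feedings, the triple mutant stood at 0.164 times WT on chromosome V and at 0.191 to 0.211 times WT on the other chromosomes on OP50. With gfp RNAi the ratio was 0.527 on V and 0.567 to 0.603 elsewhere, and with oma-1 RNAi it was 0.248 on V and 0.273 to 0.281 elsewhere. Chromosome V had the lowest ratio on each feeding, and also the highest WT level over background (13.6, 4.08 and 7.43). The triple mutant levels of the chromosomes were alike, from 2.20 to 2.43 times background on OP50, and X had the highest on every feeding.

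Loss came in blocks. The 9176 windows fell into 1705 runs when gaps of at most 1 kb were joined, of which 597 were single windows. A region was defined as a run with at least 3 called windows and a fall on every feeding. There were 816 such regions with 7995 of the windows (87.1%), a median length of 6 kb and mean changes from -2.50 to -1.03. Of these, 716 held neither a GRH nor a GRTS window, 74 held a GRH window and 48 a GRTS window. Regions of at least 50 kb numbered 14, with 9 on chromosome V and 5 on chromosome II, and no region of the same kind rose. Gene annotation of the WS190 build was not used here, so regions are given by position.

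The longest region ran for 263 kb on chromosome V, from 17395 to 17658 kb, with 259 called windows, 5 of them GRTS windows. Its mean was 12.2, 12.4 and 11.7 RPKM in the triple mutant on OP50, gfp RNAi and oma-1 RNAi, against 51.4, 28.3 and 37.7 RPKM in WT, a change of -2.06 ± 0.92 on the log2 scale (SD over 3 feedings). Within it the median window of the triple mutant, at 12.3, 12.3 and 11.7 RPKM, equalled or lay just below that of the 60 kb on either side, 12.3, 12.8 and 12.3 RPKM. WT was at 49.7, 27.4 and 35.8 RPKM inside and 28.0, 19.9 and 23.7 RPKM in the flanks. From 9 kb to 1 kb before the region lay 7 windows, chosen after their values were seen, where the triple mutant kept at least 15 RPKM in every library. Their medians were 25.4, 31.0 and 29.7 RPKM in the triple mutant and 21.8, 25.6 and 25.3 RPKM in WT, and none of them was called lower. These are deposited levels, and after scaling the triple mutant lay below WT in each of the 7 windows on OP50 and oma-1 RNAi and above WT with gfp RNAi.

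**Figure D5:**
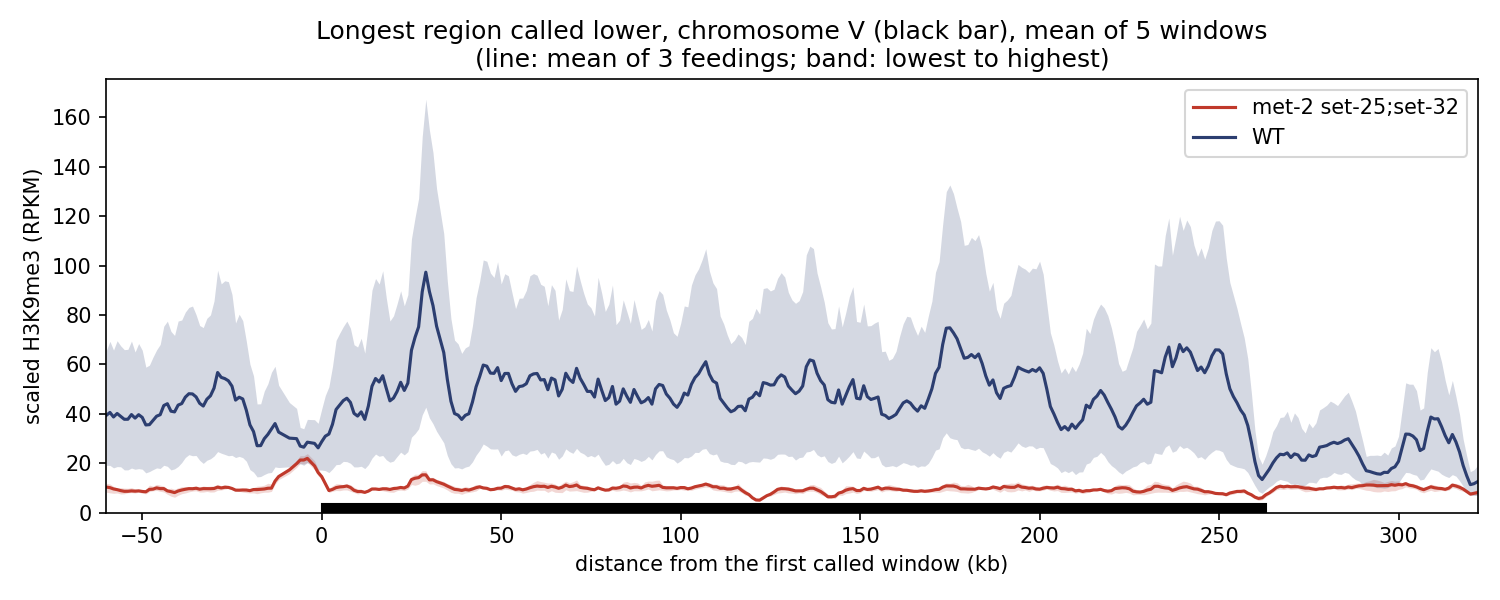
Scaled H3K9me3 (RPKM, mean of 5 neighbouring windows) along the longest region called lower and 60 kb on either side, by distance from its first called window. Lines are the means of 3 feedings, bands run from the lowest to the highest library, and the black bar is the region of 263 kb. The triple mutant line has a peak just before the region and lies below the WT line along the region.

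The 10 largest mean falls were in regions of 3 to 30 kb. The first was at 4716 to 4721 kb of chromosome IV, with 5 called windows of which 1 is a GRH window. It held 4.78, 5.70 and 6.50 RPKM in the triple mutant on OP50, gfp RNAi and oma-1 RNAi, against 38.3, 19.6 and 29.7 RPKM in WT, a change of -2.50 ± 1.03. Next was a region of 30 kb at 2033 to 2063 kb of chromosome I, with 5 GRH windows among its 29 called windows. It held 6.43, 7.11 and 7.83 RPKM in the triple mutant, against 46.6, 24.2 and 37.4 RPKM in WT, a change of -2.47 ± 0.96. In both of these regions the triple mutant lay below the median of all windows in its libraries.

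The rest of the 10 largest falls ranged from -2.37 to -2.15. They lay on chromosome IV at 2895 to 2919 kb and 3051 to 3056 kb, on I at 13660 to 13663 kb and 14879 to 14896 kb, on V at 19269 to 19283 kb, on III at 1085 to 1093 kb and 3446 to 3457 kb, and on X at 115 to 142 kb. Of the 10 regions, 4 held GRH windows. The region of chromosome V had the highest level of the 10 in both strains, 15.3, 15.6 and 14.9 RPKM in the triple mutant, against 80.3, 42.3 and 56.4 RPKM in WT. Its level in the triple mutant was above the median of all windows, unlike that of the first 2 regions.

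The other chromosomes had their most extended losses at 1545 to 1669 kb of II (119 called windows, change -1.59), 13100 to 13149 kb of I (44, -1.38), 1240 to 1274 kb of IV (34, -1.50), 1374 to 1398 kb of III (23, -1.32) and 225 to 271 kb of X (45, -1.89). In these the triple mutant held 10.0 to 12.3 RPKM in every library. The region of chromosome II, for example, stood at 12.3, 12.3 and 12.2 RPKM in the triple mutant, against 36.3, 22.1 and 27.5 RPKM in WT. The level that remained was thus similar from chromosome to chromosome.

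A small share of the H3K9me3(+) windows, 132 of 5031, were not called lower, with medians of 21.8, 22.4 and 20.1 RPKM in the triple mutant, against 30.5, 23.8 and 25.8 RPKM in WT. The highest values of all were in 13 windows at 15060 to 15073 kb of chromosome I. They averaged 505, 347 and 598 RPKM in the triple mutant, against 1290, 606 and 553 RPKM in WT, and limma called none of them, at changes of -1.37 to -0.94. Input was not analysed, so how much of these values is H3K9me3 was not tested.

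A window near 0 was found where the set-32 mutation was present. At 15907 kb of chromosome IV, chosen after its values were seen, the triple mutant held 0, 0 and 0.43 RPKM, against 6.72, 6.67 and 6.68 RPKM in WT. All 6 libraries with the set-32 mutation, single mutant included, were at 0 to 0.44 RPKM, and the 9 without it at 5.38 to 9.40 RPKM. Pol II ChIP-seq of the same strains was at 0 to 0.15 RPKM in 4 libraries with the mutation and at 1.38 to 3.25 RPKM in 6 without. The window at 15907 kb is 1 of 3 called windows of a region at 15905 to 15908 kb, which ranked 14th by mean fall (-2.10). None of the 3 is an H3K9me3(+) window, and the region held 6.40, 7.63 and 6.60 RPKM in WT. That region is among the 816 counted above. In the window at 15909 kb, 2 kb to the right of 15907 kb, the triple mutant was at 33.8, 36.1 and 33.0 RPKM, against 11.5, 14.8 and 14.5 RPKM in WT. Whether the DNA differs there was not tested, and these windows are separate from the gene set-32, which lies on another chromosome.

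Among the other mutants, met-2 set-25 had the fewest windows that differed from the triple mutant. In the same fit 74 windows (0.0742%) were lower and 2 (0.00201%) higher in the triple mutant than in met-2 set-25, with 3 of the H3K9me3(+) windows lower. Of the 74 windows, 34 lay in the first 250 kb of X, between 24 and 206 kb. Their medians were 4.46, 5.17 and 4.15 RPKM in the triple mutant, 9.40, 10.0 and 11.2 RPKM in met-2 set-25, and 8.69, 8.00 and 8.71 RPKM in WT. The number called there ranged up to 38, without the WT library on OP50 or on gfp RNAi, and was lower under other settings, 17 with depth normalization only, 17 without the OP50 libraries and 6 without the oma-1 RNAi libraries. Leaving out the triple mutant library on OP50 left 7 and the one on oma-1 RNAi left 8. The count of all windows that differ from met-2 set-25 was 26 with depth normalization only, 25 with scaling to the median of all windows, 28 without the OP50 libraries and 12 without the oma-1 RNAi libraries, and it was 11 and 16 without the triple mutant library on OP50 and on oma-1 RNAi.

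Against set-32, 5167 windows (5.18%) were lower in the triple mutant and 11 (0.0110%) higher, and against hrde-1, 8630 (8.65%) were lower and 30 (0.0301%) higher. In GRH windows the triple mutant was lower than hrde-1 in 6 of 215 and higher in 2, with a median difference of 0.04 on the log2 scale, whereas in GRTS windows it was lower in 93 of 191. Against set-32 it was lower in 47 GRH and 101 GRTS windows. The contrasts share the triple mutant libraries. The number of windows that differ from set-32 was 763 without the oma-1 RNAi libraries, 1370 without the triple mutant library on oma-1 RNAi, 859 without that on OP50 and 8641 without that on gfp RNAi, and it was 1221 with depth normalization only.

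Pol II phosphorylated at S2 of its tail, the elongating form, was measured in the triple mutant and WT with gfp RNAi and oma-1 RNAi, and was set beside H3K9me3 in the windows called lower. These libraries have the same split of name prefixes between the strains as those of H3K9me3. With depth normalization limma called 272 of the 9176 windows (2.96%) higher in Pol II in the triple mutant and 55 (0.599%) lower, where 1.85% of all windows were higher and 0.475% lower. The median change was 0.34 in these windows and 0.27 over all windows. When each library was instead set to its median over all windows, the split turned, with 86 of them higher (0.937%) and 324 lower (3.53%). Over all windows 667 were then higher (0.669%) and 4958 lower (4.97%). The median change was -0.047 in these windows and -0.11 over all windows. The sign of the Pol II change there thus rests on the scaling, while its median lay above that of all windows under both scalings. With depth normalization and without the feeding term, 152 of the 9176 windows were higher.

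Of the GRH windows 14 of 215 were higher in Pol II in the triple mutant and 3 lower, and of the GRTS windows 21 of 191 were higher and 0 lower by limma, against 1.85% and 0.475% of all windows. In the 10 regions with the largest falls 17 of 142 windows were higher and 0 lower. At an unadjusted p under 0.05 and any fold, limma had 6459 of all 99742 windows lower. Among them were 25 of the 215 GRH windows, 2 of the 191 GRTS windows and 4 of the 142 windows of the 10 regions. When each library was set to its median over all windows, 0.669% of all windows were higher and 4.97% lower. Of the GRH windows 5 were then higher (2.33%) and 22 lower (10.2%). Of the GRTS windows 6 were higher (3.14%) and 2 lower (1.05%), and of the 10 regions 6 windows were higher (4.23%) and 2 lower (1.41%). At the named loci Pol II calls went in both directions. In the X region at 115 to 142 kb, 10 of 27 windows were called higher, at 8.56 and 8.00 RPKM in the triple mutant with gfp RNAi and oma-1 RNAi, against 4.23 and 4.42 RPKM in WT. At 19269 to 19283 kb of chromosome V, 1 of 14 windows was called higher, and the region held 5.22 and 3.98 RPKM in the triple mutant, against 2.41 and 1.79 RPKM in WT. At the GRH locus of chromosome V, 2 of 7 windows were called lower, and it held 8.01 and 6.95 RPKM in the triple mutant, against 13.3 and 12.5 RPKM in WT. At cer8 it held 9.92 and 8.29 RPKM in the triple mutant and 6.58 and 7.25 RPKM in WT, with a change of 0.35 near the 0.27 of all windows.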

How the data were processed

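ChIP libraries were from whole young adult animals. Per the study's methods and the labels, the authors aligned reads to WS190 by Bowtie 0.12.7 allowing no mismatch, gave each of N matches of a read a weight of 1/N, and deposited RPKM normalized to depth. The deposited table also holds marks for misannotated windows and calls of HMT dependence by the authors, and those calls were not used. Input libraries were not analysed here. Of 100270 windows, 506 marked misannotated and 22 with a mean under 3 RPKM were left out. H3K9me3 libraries were divided by their H3K9me3(−) median relative to the mean of the 15 libraries, and Pol II was used with depth normalization only. Windows were compared with limma 3.58.1 (R 4.3.3, trend) on log2(RPKM + 1), a scale that understates changes of low windows, over 15 H3K9me3 or 10 Pol II libraries of 5 strains, with strain and feeding as terms. The H3K9me3 fit shrank every window's variance fully to the trend. Neighbouring windows are not independent. The p-values rest on the spread left between libraries after the strain and feeding terms, pooled over the 5 strains. They do not measure the spread between repeats of a feeding.

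RPKM are not counts, and reads with several matches are split, so no count model was used. Depth was inferred from the smallest step between RPKM values of a library, and 81.8% to 90.7% of low values (up to 20 reads) were whole steps in the H3K9me3 libraries, within the rounding of the file plus 0.02 reads. Counting intervals (95%, exact Poisson) cover counting error only. On simulated data for the H3K9me3 comparison over 99742 windows, 200 of them changed, the fit recovered 32% of 2-fold and 99% of 4-fold changes with 8 false calls. For the Pol II comparison it recovered 38% and 100% with 6 false calls. A change of exactly 2-fold falls on the threshold, which caps its recovery. The simulated noise followed the fitted trend, was independent between windows and was equal between strains. Changes were placed only in windows above the median level. The real libraries do not meet these settings, so the false calls do not measure the error of the real calls.

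Named were the loci of the study with a place in the genome, then the 10 regions with the largest mean fall, the region with the most called windows on each chromosome, and regions that rose. A locus that this rule also names is not reported here. The members, window sets and rules were chosen with earlier results of these data known. Positions are those of the files (WS190), primer places and sequences are from the study's list of oligonucleotides, and chromosomes of genes were looked up in RefSeq (WBcel235). Other steps used matplotlib 3.10.9, scipy 1.17.1, pandas 2.3.3, numpy 2.4.6 and Python 3.11.15.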

Additional observations from a re-analysis of the deposited data

How the results depend on the processing

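The number of windows lower in the triple mutant than in WT was 9176 (4349 with depth normalization only, 4988 when the fit held the triple mutant and WT only) and lay between 5631 and 14730 when a feeding or a single library was left out. The number higher was 13 (512 with depth normalization only, 39 with scaling to the median of all windows, 20 with H3K9me3(−) windows from WT with gfp RNAi, 54 and 0 with pseudocounts of 0.5 and 2, where a pseudocount of 2 also gave 0 at an unadjusted p under 0.05 by limma) and lay between 3 and 187. GRH windows called lower numbered 162 with depth normalization only and 179 to 214 with libraries left out, GRTS windows 146 and 157 to 176, and 181 and 114 in the fit over the triple mutant and WT only. All 320 values of the 16 named regions under the alternatives stayed negative, from -2.99 to -0.81. These regions were chosen from the same data for a fall on every feeding, so their sign could hardly turn. The ratio of triple mutant to WT in H3K9me3(+) windows was 0.433 with depth normalization only and 0.217 to 0.409 with a feeding left out. Windows that differ from met-2 set-25 numbered 76 in all, 26 with depth normalization only, 25 with scaling to the median of all windows, 45 with a pseudocount of 2, and 11 to 99 with libraries left out. Those that differ from set-32 numbered 5178, with 1221, 1688 and 763 to 8641, and from hrde-1 8660, with 4086, 5334 and 6145 to 11581. These alternatives for the other mutants were added after the data were seen. In the windows with less H3K9me3, 272 were higher in Pol II (86 with scaling to the median of all windows), 55 were lower (324), and the median change of 0.34 was -0.047 with that scaling, 0.38 with a pseudocount of 0.5 and 0.29 with 2. The cause of these differences was not tested.

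Without the replicate block (no feeding term) 9128 windows were lower and 13 higher than in WT, 49 differed from met-2 set-25, and Pol II was higher in 152 windows. For each feeding, the deviations of the triple mutant and WT libraries from their strain means were correlated over windows. The correlation was 0.14 on OP50, -0.04 with gfp RNAi and -0.04 with oma-1 RNAi. These values show little deviation shared by feeding, and pairing was not tested otherwise. Depth limits the low windows most, with a median of 22 reads per window in the WT library on OP50.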
